A study of Saccharomyces cerevisiae with 16 samples.

Results

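Mixed and control wine fermentations were compared at 22 h, when the labels place Saccharomyces cerevisiae in exponential growth. The comparison took every array labelled as a mixed fermentation of 22 h (2 arrays) and every array labelled as a control fermentation of 22 h (2 arrays), which is 4 of the 16 arrays of the series. In the mixed fermentations the industrial wine yeast Lalvin EC1118 grew on one side of a dialysis membrane and the spoilage yeast Dekkera bruxellensis, strain ZIM 701, on the other. In the control fermentations Lalvin EC1118 grew on one side and the other side stayed sterile. All 4 fermentations used an artificial wine must at 22 °C, with no sugar, oxygen or nitrogen value given in the sources used here. RNA was taken from the S. cerevisiae biomass and hybridised to one-colour Agilent expression arrays. The 12 other arrays hold the same 2 kinds of fermentation at 92 h, 144 h and 187 h. The fermentations were run in duplicate. The p-values measure the spread between duplicate arrays, pooled over all 8 groups, not over the 4 arrays of 22 h alone. The labels do not say whether same-numbered arrays of different times came from 1 vessel. RNA came from bulk cultures, so less RNA per cell and fewer expressing cells cannot be told apart.

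A dialysis membrane keeps cells apart and lets small molecules through, so a partner across it can be met through nutrients, oxygen and metabolites. Early in a must fermentation S. cerevisiae takes up sugars and the preferred nitrogen sources, and nitrogen catabolite repression holds down permeases and enzymes for poorer nitrogen sources until the better ones run low. When oxygen is scarce, heme and sterol synthesis stall and the yeast is known to express cell wall mannoproteins of the PAU, DAN and TIR families. S. cerevisiae carries many near-identical PAU copies, called seripauperins.

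Levels are given as relative log2 signals, that is the log2 processed signal minus the 75th percentile of the array, so a level of 0 is brighter than most genes. A difference is mixed minus control on that scale. Of the 6256 gene probes, 6184 were well above background on at least 2 arrays and were kept. On the 4 arrays of 22 h, 5970 to 6089 probes were well above background and no gene spot was saturated. The median processed signal was 2085 and 2978 intensity units on the mixed arrays, against 2352 and 3045 on the control arrays. Replicate 1 of both kinds lay on slide 1 and replicate 2 on slide 2. On each slide 1 row held mixed arrays and the other control arrays, so kind and place on the slide cannot be told apart. The growth phase was checked with marker genes. Of 5 genes of stationary cells, SPG1, SPG4, SPS100 and HSP26 were lower on every array of 22 h than on any later array, and HSP12 was not. SPG1 had levels of -4.73 and -4.25 in mixed and -4.73 and -4.75 in control fermentations, against 0.81 to 2.83 on the 12 later arrays. The cytosolic ribosomal protein genes, which growing cells express, had median levels of 2.86 and 2.91 in mixed and 2.77 and 2.92 in control fermentations, against 0.69 to 2.11 on the later arrays. These values set the 22 h arrays apart from the later ones in the direction of the label, but the ribosome biogenesis genes did so for 3 of the 4 arrays. Their median levels were -1.06 and -0.53 in mixed and -0.68 and -1.29 in control fermentations, against -1.94 to -1.22 on the later arrays, which includes the value of control 2.

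No gene passed an adjusted p of 0.05 between mixed and control fermentations at 22 h in limma (0 of 6184, 0.0%). At an unadjusted p under 0.05 there were 391 genes, of which 213 (3.44%) were higher and 178 (2.88%) were lower in mixed. Scaling the arrays to their median in place of the 75th percentile gave 254 higher and 120 lower at that p, and again 0 after adjustment. The smallest adjusted p was 0.498, shared by CTT1, DAL80 and YJR149W. The values below are therefore described by their levels on each array and by whether both slides show the same sign, and none is a call at the adjusted threshold.

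The 4 arrays did not fall into a mixed and a control pair. The most alike were mixed 2 and control 1, whose log2 difference had a standard deviation of 0.35 over genes, and the least alike were mixed 2 and control 2, at 0.55. Mixed 1 and mixed 2 stood at 0.40, and control 1 and control 2 at 0.46. Over the 6184 genes, the slide 1 difference and the slide 2 difference had a Pearson correlation of -0.18, against 0.41, 0.32 and 0.41 at 92 h, 144 h and 187 h. The 2 differences share no array, and genes are not independent replicates. They had the same sign for 44.3% of the genes at 22 h (1057 or 17.1% with mixed higher and 1682 or 27.2% with mixed lower), against 61.9%, 61.7% and 69.3% at the later times. Of the 633 genes that spanned at least 1 log2 over the 4 arrays, control 2 was the array farthest from the others for 290, mixed 2 for 124, control 1 for 124 and mixed 1 for 95. Several results below rest on control 2 or on mixed 2, and for those of largest size the difference without the array is given beside them.

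A gene was counted as separated when both mixed arrays lay on 1 side of both control arrays. Over all genes kept, 818 (13.2%) were separated with mixed higher and 1301 (21.0%) with mixed lower. The counts of separated genes in the lists below are to be read against these shares. A difference of at least 0.5 log2 on both slides was met by 97 genes (1.57%) with mixed higher and by 28 (0.453%) with mixed lower. The median difference over all genes was -0.03 on slide 1, -0.05 on slide 2 and -0.02 for the mean. Scaling by the 7 spike-in probes in place of the 75th percentile moved that median to 0.50, so differences are read relative to the other genes of the same array. This scaling takes 1 constant from each array, so it moved every difference by the same amount and kept their order. A sign that it turns is therefore no separate result for a gene or list.

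**Figure D1:**
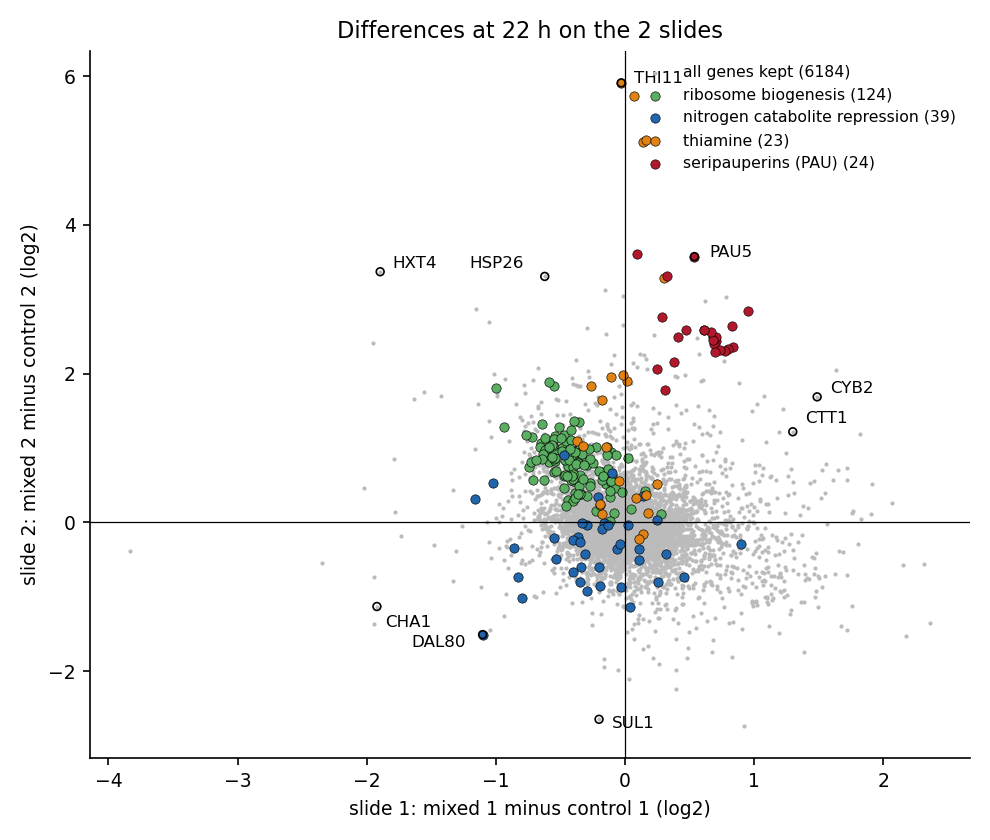
Each point is 1 of 6184 genes, with mixed 1 minus control 1 (slide 1, log2) on the horizontal axis and mixed 2 minus control 2 (slide 2, log2) on the vertical axis, and 4 gene lists are coloured. The seripauperin genes lie to the upper right of 0, nearly all ribosome biogenesis genes lie at the upper left with opposite signs on the slides, and 4 thiamine genes differ by over 5 log2 on slide 2 and by under 0.2 on slide 1.

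The seripauperin genes had the largest list median of the comparison. All 24 were separated with mixed higher (13.2% of all genes) and 16 were higher by at least 0.5 on both slides (1.57% of all genes). The median difference was 1.57, made of 0.67 on slide 1 and 2.49 on slide 2, and single genes ranged from 1.04 (PAU8) to 2.06 (PAU5). The median level of the list was 1.68 and 3.71 on the mixed arrays, against 1.06 and 0.87 on the control arrays. The control arrays thus lay close together, mixed 1 lay slightly above them and mixed 2 far above. The size of the shift rests on mixed 2, since the list median was 0.71 without that array and 2.46 without mixed 1. Each of these 2 medians rests on a lone mixed array and was not tested.

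PAU5 had levels of 1.88 and 4.16 in mixed fermentations, against 1.34 and 0.58 in control fermentations, a difference of 2.06 ± 0.58 (SE, n = 2 arrays each, adjusted p = 0.558 in limma). Here and below the SE is the moderated one of limma, whose spread is pooled over all 8 groups. It is not the spread of the arrays of 22 h, which for PAU5 lay far apart in mixed. PAU17 had levels of 0.55 and 2.41 in mixed, against -0.41 and -0.43 in control. Its difference of 0.96 on slide 1 was the largest of the family on that slide, and the mean was 1.90. PAU7 was nearly level on slide 1, with 0.92 in mixed and 0.82 in control, and far apart on slide 2, with 3.78 in mixed and 0.18 in control, so that its mean of 1.85 was 0.41 without mixed 2. PAU3, PAU15, PAU19 and PAU23 belonged with PAU17 to the 10 genes of largest smaller slide difference, at 0.77 to 0.96, among annotated genes that were higher in mixed and well above background on all 4 arrays. Because the family's sequences are nearly identical, a probe can bind RNA of several copies, and the 24 values are not separate evidence.

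**Figure D2:**
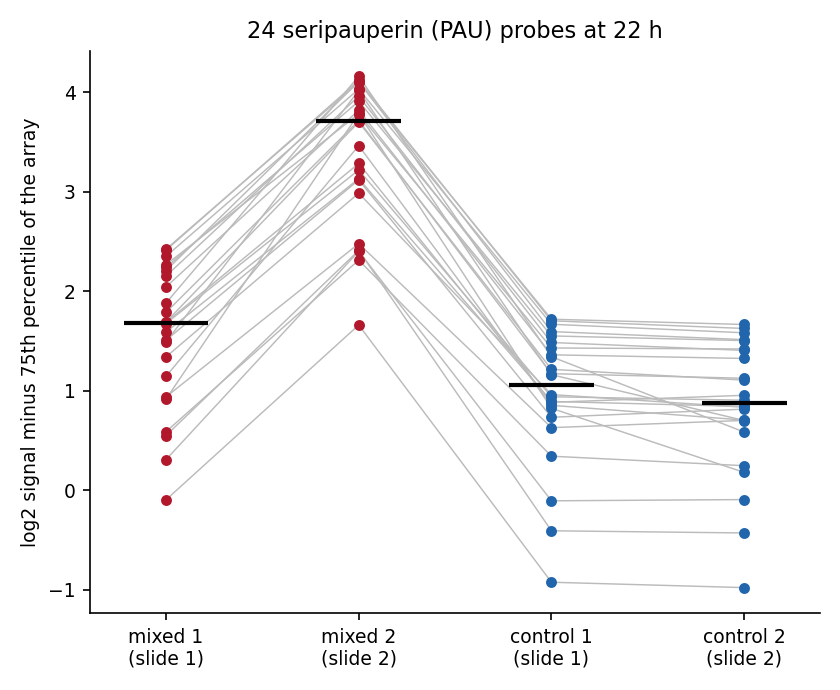
Relative log2 signals of the 24 seripauperin probes on the 4 arrays of 22 h, with mixed fermentations in red, control fermentations in blue, a grey line for each probe and a black bar for the median of each array. The medians are 1.68 and 3.71 in mixed and 1.06 and 0.87 in control.

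The other anaerobic cell wall genes did not all follow the seripauperins on slide 2. In a list of 10 mannoprotein genes, 5 were separated with mixed higher (13.2% of all genes) and the other 5 had opposite signs on the slides. The 5 separated genes include the seripauperins PAU23 and PAU24, with slide 2 differences of 2.64 and 2.59. The list was not summarised without them. The list median was 0.37, with 0.72 on slide 1 and -0.0042 on slide 2. TIR2 had levels of 5.74 and 5.66 in mixed, against 5.18 and 5.12 in control, and its difference of 0.55 ± 0.33 was alike on both slides. DAN4, at -1.21 and -1.04 in mixed against -1.71 and -1.90 in control, was separated as well. DAN1 had levels of 3.102 and 2.89 in mixed, against 2.24 and 3.36 in control, so that the groups overlapped. TIR1 showed the same, at 4.88 and 4.47 in mixed against 3.84 and 4.94 in control. For both genes control 2 was the highest array, and the difference was below 0 when control 1 was left out (-0.36 for DAN1 and -0.26 for TIR1).

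The ergosterol list was alike on both slides. Of 33 genes for sterol synthesis, storage and uptake, 22 were separated with mixed higher and 1 with mixed lower (13.2% and 21.0% of all genes). The median difference was 0.35, or 0.33 on each slide taken alone. The median was 0.31 to 0.35 when any 1 array of 22 h was left out, and 0.23 with quantile normalization. HMG1, one of the genes for the HMG-CoA reductase that limits the pathway, had levels of 3.22 and 2.998 in mixed, against 2.50 and 1.97 in control (difference 0.88 ± 0.21, n = 2 each, adjusted p = 0.558 in limma). ERG13, the HMG-CoA synthase one step earlier, had levels of 3.85 and 3.60 in mixed, against 3.06 and 2.97 in control (0.70 ± 0.21). Both genes thus lay well above their controls on each slide. ERG5, a desaturase late in the pathway, differed by 0.61, and ERG11, the lanosterol demethylase and target of azole drugs, by 0.43. ARE2, which esterifies sterols for storage, differed by 0.59, and AUS1, a sterol importer of anaerobic cells, by 0.49 with overlapping groups.

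The regulator genes UPC2 and ECM22 had the opposite sign. UPC2, a transcription factor that turns on sterol and DAN/TIR genes when sterol is low, had levels of -2.32 and -1.66 in mixed, against -1.55 and -1.10 in control (-0.67 ± 0.23). Its paralogue ECM22 was at -1.76 and -1.26 in mixed, against -1.31 and -0.95 in control, and its groups overlapped. The ECM22 difference of -0.38 was 0.15 with spike-in scaling. In a wider list of 16 genes regulated by oxygen or heme, 7 were separated with mixed higher and 0 with mixed lower (13.2% and 21.0% of all genes). The median of this list was 0.14. CYC7, the cytochrome c isoform of hypoxic cells, had the largest difference there, with levels of 1.73 and 2.17 in mixed against 1.39 and 0.75 in control.

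CTT1 had the smallest unadjusted p of the genes that were higher in mixed. It encodes the cytosolic catalase that breaks down hydrogen peroxide. Its levels were 1.57 and 1.499 in mixed fermentations, against 0.27 and 0.28 in control fermentations, so that the replicates of each kind lay within 0.1 of each other. The difference was 1.26 ± 0.23 (n = 2 each, adjusted p = 0.498 in limma), and it was 1.22 to 1.30 when any 1 array was left out. On the later arrays CTT1 stood between 1.07 and 1.83 in mixed and between 1.33 and 1.94 in control, so the control arrays of 22 h were the lowest of the series for this gene. SOL4, a phosphogluconolactonase gene of the pentose phosphate route, also had close mixed values, at -1.52 and -1.59, against -2.18 and -2.76 in control (0.91 ± 0.20).

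The wider stress response did not differ as 1 block. Of 50 genes induced by many stresses, 17 were separated with mixed higher and 5 with mixed lower (13.2% and 21.0% of all genes). The median was 0.20, with 0.03 on slide 1 and 0.32 on slide 2. GPH1, the glycogen phosphorylase, had levels of 1.88 and 2.62 in mixed, against 1.73 and 0.38 in control, and its difference of 1.19 was 0.52 without control 2. HSP26, a small heat shock protein, had levels of -0.90 and 1.28 in mixed, against -0.28 and -2.03 in control, with the slides in opposite directions, and its mean of 1.34 was 0.47 without control 2 and 0.25 without mixed 2. MSN4, a transcription factor of this response, was the lowest member, at -1.28 and -1.30 in mixed against -0.73 and -0.69 in control (-0.58 ± 0.20).

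Of the annotated genes well above background on all 4 arrays, CYB2 had the largest value of the smaller slide difference. It encodes cytochrome b2, the mitochondrial lactate dehydrogenase that passes electrons from L-lactate to cytochrome c. Its levels were -0.94 and -1.63 in mixed, against -2.43 and -3.32 in control, which gave 1.49 on slide 1 and 1.69 on slide 2. The mean difference was 1.59 ± 0.40 (n = 2 each, adjusted p = 0.558 in limma). With the slide as a block the adjusted p of CYB2 was 0.0134 in limma, and it was then the 1 gene that passed. However, same-numbered arrays of 22 h deviated in opposite directions (correlation -0.47). No gene passed with the numbers of the 22 h control arrays crossed. That pairing was added after seeing the data and joins arrays of different slides, so it is no test of the slide block. CYB2 belongs to a list of 41 respiratory chain genes whose median was 0.18, with -0.06 on slide 1 and 0.38 on slide 2. In that list 13 were separated with mixed higher, among them the cytochrome oxidase subunit genes COX7 (0.62) and COX13 (0.56), and 6 with mixed lower. Over all genes these shares were 13.2% and 21.0%. Leaving out control 2 put the list median at -0.02, COX7 at 0.32 and COX13 at 0.18.

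The citric acid cycle list had the opposite sign. Of 18 genes, 9 were separated with mixed lower and 0 with mixed higher (21.0% and 13.2% of all genes), with a median of -0.21 (slides -0.12 and -0.24). The shift of spike-in scaling, shared by all genes, put it at 0.32, with the all-gene median at 0.50. ACO1, the aconitase, had levels of 1.28 and 0.92 in mixed, against 1.69 and 2.01 in control (-0.75 ± 0.29). SDH2, a succinate dehydrogenase subunit, had levels of 0.07 and -0.22 in mixed, against 0.51 and 0.52 in control (-0.58 ± 0.24). Both were lower on each slide, with the larger gap on slide 2.

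**Figure D3:**
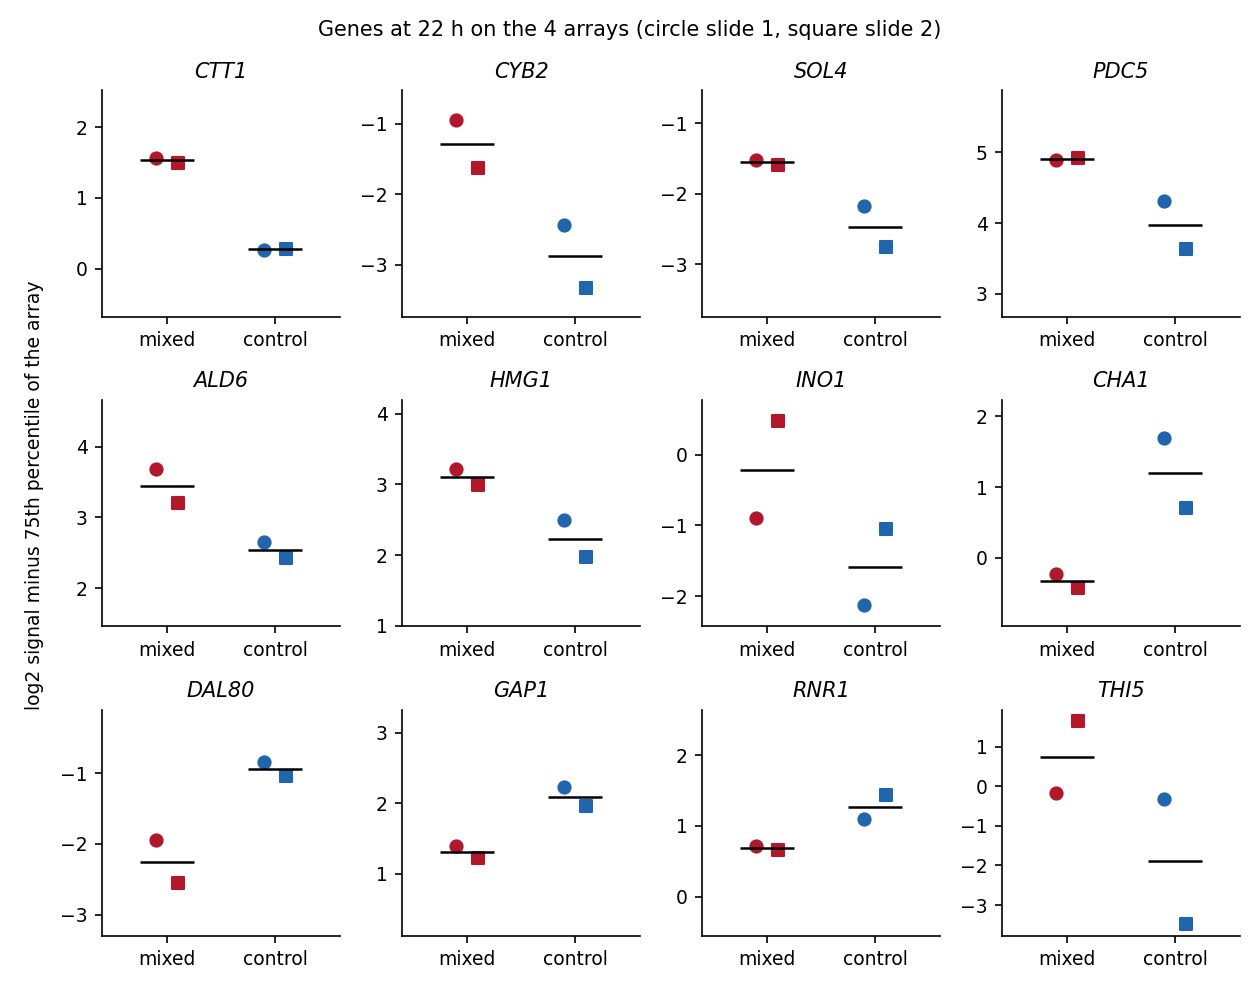
Relative log2 signals of 12 genes at 22 h, each panel with mixed fermentations in red at the left and control fermentations in blue at the right, circles for slide 1, squares for slide 2 and a bar for the mean of 2 arrays. CTT1 sits at 1.57 and 1.499 in mixed and at 0.27 and 0.28 in control, whereas THI5 is level on slide 1 and apart on slide 2, with mixed 2 at 1.64 and control 2 at -3.47.

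Of the genes that carry sugar to ethanol, PDC5 and ADH4 had the largest differences. The median of 26 glycolytic and ethanol-forming genes was 0.09 on the main scale, and it was -0.03 with quantile normalization and -0.06 with normexp, so its direction depends on the scaling. PDC5, a pyruvate decarboxylase isoenzyme, had levels of 4.90 and 4.92 in mixed, against 4.32 and 3.63 in control (0.93 ± 0.21, adjusted p = 0.558 in limma), and the difference was 0.59 without control 2. ADH4, an alcohol dehydrogenase isoenzyme, had levels of -1.54 and -0.40 in mixed, against -2.27 and -1.62 in control (0.97 ± 0.49, or 0.40 without mixed 2). ALD6, which oxidises acetaldehyde to acetate in the cytosol, had levels of 3.69 and 3.21 in mixed, against 2.65 and 2.43 in control (0.91 ± 0.40), above its controls by 1.04 on slide 1 and 0.78 on slide 2. GPD2, a glycerol phosphate dehydrogenase of redox balance, was lower in mixed, at -4.82 and -4.15 against -3.91 and -3.90 in control. ZWF1, the entry enzyme of the pentose phosphate route, was lower as well, at -2.74 and -1.90 against -1.70 and -1.42. For GPD2 and ZWF1 the standard errors, 0.52 and 0.49, were large beside differences of -0.58 and -0.76.

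The hexose transporter genes were mostly split by slide. Of 20 genes, 7 were under background on at least 1 array of 22 h, 15 had opposite signs on the slides, 3 were separated with mixed higher and 1 with mixed lower. Over all genes 13.2% were separated with mixed higher and 21.0% with mixed lower, so these counts do not set the list apart. HXT7, a high-affinity carrier, had levels of -0.23 and 0.97 in mixed, against -0.21 and -2.07 in control. HXT6, its near-identical neighbour, had levels of -1.28 and 0.07 in mixed, against -1.13 and -3.06 in control. HXT4 had levels of -1.12 and 0.58 in mixed, against 0.78 and -2.79 in control, which is -1.90 on slide 1 and 3.37 on slide 2. In all 3 genes control 2 was the lowest array. Without it the differences were 0.58 for HXT7 (1.51 with it), 0.52 for HXT6 (1.49 with it) and -1.05 for HXT4 (0.74 with it). GAL2, the galactose permease, was dim but alike on both slides, at -6.32 and -6.17 in mixed against -7.15 and -6.96 in control (0.81 ± 0.24).

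The median of the genes under nitrogen catabolite repression was lower in mixed on both slides. Of 39 genes, 24 were lower on both slides, 2 were higher on both (27.2% and 17.1% of all genes) and 13 had opposite signs. By the arrays, 21 were separated with mixed lower and 1 with mixed higher (21.0% and 13.2% of all genes), with a median of -0.27 (slides -0.21 and -0.34). The shift of spike-in scaling, shared by all genes, put this median at 0.26, with the all-gene median at 0.50. The median was -0.35 to -0.23 when any 1 array was left out. DAL80, a GATA repressor that is itself repressed by good nitrogen sources, had levels of -1.95 and -2.55 in mixed, against -0.85 and -1.04 in control (-1.31 ± 0.25, adjusted p = 0.498 in limma). DAL5, the allantoate permease, had levels of -0.58 and -1.11 in mixed, against 0.21 and -0.10 in control (-0.91 ± 0.28). GAP1, the general amino acid permease, had levels of 1.40 and 1.23 in mixed, against 2.23 and 1.96 in control (-0.78 ± 0.28). All 3 were lower in mixed by over 0.7 on each slide. MEP2, the high-affinity ammonium permease, had levels of 1.94 and 1.57 in mixed, against 2.29 and 2.37 in control (-0.57 ± 0.19). BAT2, the cytosolic branched-chain transaminase on the way to fusel alcohols, had levels of 1.92 and 1.55 in mixed, against 2.21 and 2.48 in control (-0.61 ± 0.17).

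CHA1, the serine and threonine deaminase that lets cells use these amino acids as nitrogen source, had the largest lower difference among genes well above background on all 4 arrays and alike on both slides. Its levels were -0.23 and -0.43 in mixed, against 1.69 and 0.71 in control (-1.53 ± 0.38, adjusted p = 0.558 in limma). Amino acid permeases as a list lay near 0, with a median of -0.06 over 26 genes (0.47 with spike-in scaling, close to the all-gene median of 0.50). In this list 8 were separated with mixed lower and 2 with mixed higher (21.0% and 13.2% of all genes). DIP5, the carrier of glutamate and aspartate, had levels of 1.37 and 1.41 in mixed, against 2.09 and 1.92 in control. BAP2, a branched-chain amino acid permease, had levels of 0.07 and 0.31 in mixed, against 0.71 and 0.58 in control, a difference of -0.45 that was 0.08 with spike-in scaling. MUP1, the methionine permease, lay the other way, at 1.27 and 0.96 in mixed against 0.35 and 0.88 in control.

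Genes for making amino acids were lower mainly on slide 2. Of 66 genes, 32 were separated with mixed lower and 0 with mixed higher (21.0% and 13.2% of all genes). The median was -0.23 (slides -0.06 and -0.46), or 0.30 with spike-in scaling. ILV6, the regulatory subunit of acetolactate synthase in valine and isoleucine synthesis, had levels of -0.19 and 0.38 in mixed, against 0.86 and 1.83 in control (-1.25 ± 0.40). It was lower on both slides by over 1. ILV3, later in the same pathway, differed by -0.56, and LEU1, in leucine synthesis, by -0.70. The list median was -0.11 when control 2 was left out and -0.39 when control 1 was left out.

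Sulfur genes differed between the slides. The 29 genes for sulfate assimilation and methionine synthesis had a median of -0.42, with 0.11 on slide 1 and -0.85 on slide 2, and it was 0.11 with spike-in scaling. There, 5 were separated with mixed lower and 1, MUP1, with mixed higher, and 21 had opposite signs. Over all genes the separated shares were 21.0% with mixed lower and 13.2% with mixed higher, so these counts do not set the list apart. MET10, a sulfite reductase subunit, had levels of 2.02 and 1.58 in mixed, against 2.27 and 2.96 in control, and MET1, needed for its siroheme cofactor, differed by -0.71. SUL1, a sulfate permease, had levels of -3.78 and -6.003 in mixed, against -3.58 and -3.35 in control. SUL2, the other sulfate permease, had levels of 0.81 and 0.70 in mixed, against 1.32 and 1.57 in control (-0.69 ± 0.26). Mixed 2 was the low array for SUL1, and the list median was -0.14 without mixed 2 and -0.10 without control 2.

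Purine synthesis, vitamin and replication genes were lower by smaller amounts, and the shared shift of spike-in scaling put the 3 list medians above 0. For 28 purine genes the median was -0.12 (0.41 with spike-in scaling), with 13 separated with mixed lower and 2 with mixed higher. Over all genes 21.0% were separated with mixed lower and 13.2% with mixed higher. ADE4, which opens the pathway, had levels of 1.51 and 1.33 in mixed, against 1.80 and 2.04 in control, and its difference of -0.50 was 0.03 with spike-in scaling. For 15 genes of biotin and related vitamins the median was -0.18 (0.35 with spike-in scaling). Of them 8 were separated with mixed lower and 0 with mixed higher (21.0% and 13.2% of all genes). SNZ1, a pyridoxine synthesis gene, had levels of 3.65 and 3.52 in mixed, against 4.21 and 4.02 in control, a difference of -0.53 that was at 0.00 with spike-in scaling. BIO5, a transporter for a biotin precursor, differed by -0.52, with 0.01 under spike-in scaling.

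For 53 cell cycle and replication genes the median was -0.21 (slides -0.05 and -0.45, and 0.32 with spike-in scaling). Of them 25 were separated with mixed lower and 2 with mixed higher (21.0% and 13.2% of all genes). RNR1, the large subunit of ribonucleotide reductase, had levels of 0.72 and 0.66 in mixed, against 1.10 and 1.44 in control (-0.58 ± 0.15). RAD27, a nuclease that trims Okazaki fragments, had levels of -1.98 and -1.97 in mixed, against -1.50 and -1.19 in control (-0.63 ± 0.22). POL30, the sliding clamp of the replication fork, had levels of 0.69 and 0.15 in mixed, against 0.74 and 1.12 in control, a difference of -0.51 that was 0.02 with spike-in scaling. The 10 histone genes, which replicating cells express, had opposite signs on the slides in every case, with medians of 0.27 on slide 1 and -0.67 on slide 2.

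The thiamine genes gave the largest single-gene means of the named genes, and these were largely set by control 2 and mixed 2. THI5, one of 4 near-identical genes for the pyrimidine part of thiamine, had levels of -0.18 and 1.64 in mixed, against -0.32 and -3.47 in control. THI12 had levels of -0.24 and 1.57 in mixed, against -0.40 and -3.57 in control. THI11 was at -0.95 and 1.08 in mixed, against -0.92 and -4.83 in control. THI13 was at -2.26 and -0.40 in mixed, against -2.33 and -6.13 in control. The means of these 4 genes were 2.63 to 2.94, while the slide 1 differences were -0.03 to 0.16. Control 2 was the lowest of the 4 arrays for each of them, and mixed 2 the highest. The differences of the 4 genes were 0.99 to 1.07 without control 2 and 1.72 to 1.97 without mixed 2. The median of the 23 genes on the thiamine list was 0.69 without control 1 and 0.16 without control 2. THI4, the thiazole synthase, had levels of 6.04 and 6.20 in mixed, against 6.02 and 4.30 in control, a difference of 0.96 that was 0.098 without control 2. THI22, a relative of pyrimidine kinases, differed by 0.30 on slide 1 and 3.29 on slide 2. On the later arrays THI5 lay between 0.22 and 1.18 in mixed and between -0.24 and 0.20 in control, so control 2 of 22 h was lower than any of these. The median of the list was 0.38, with -0.02 on slide 1 and 1.02 on slide 2.

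Ribosome biogenesis showed the same division between slides across a whole list. Of 124 genes, 120 had opposite signs, with a median of -0.40 on slide 1 and 0.82 on slide 2. The other 4 were separated with mixed higher (13.2% of all genes). The median level was -1.06 and -0.53 in mixed, against -0.68 and -1.29 in control, so mixed 2 was the highest and control 2 the lowest array. DBP2, an RNA helicase, had levels of -0.97 and 0.23 in mixed, against 0.04 and -1.58 in control. NHP2, a protein of small nucleolar particles, was alike on both slides, at 1.90 and 2.00 in mixed against 1.75 and 1.58 in control. The list median of 0.20 was -0.11 without control 2 and -0.09 without mixed 2, and 0.51 without control 1 or without mixed 1. The 138 cytosolic ribosomal protein genes had a median of 0.05, which was -0.03 with quantile normalization and with normexp.

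**Figure D4:**
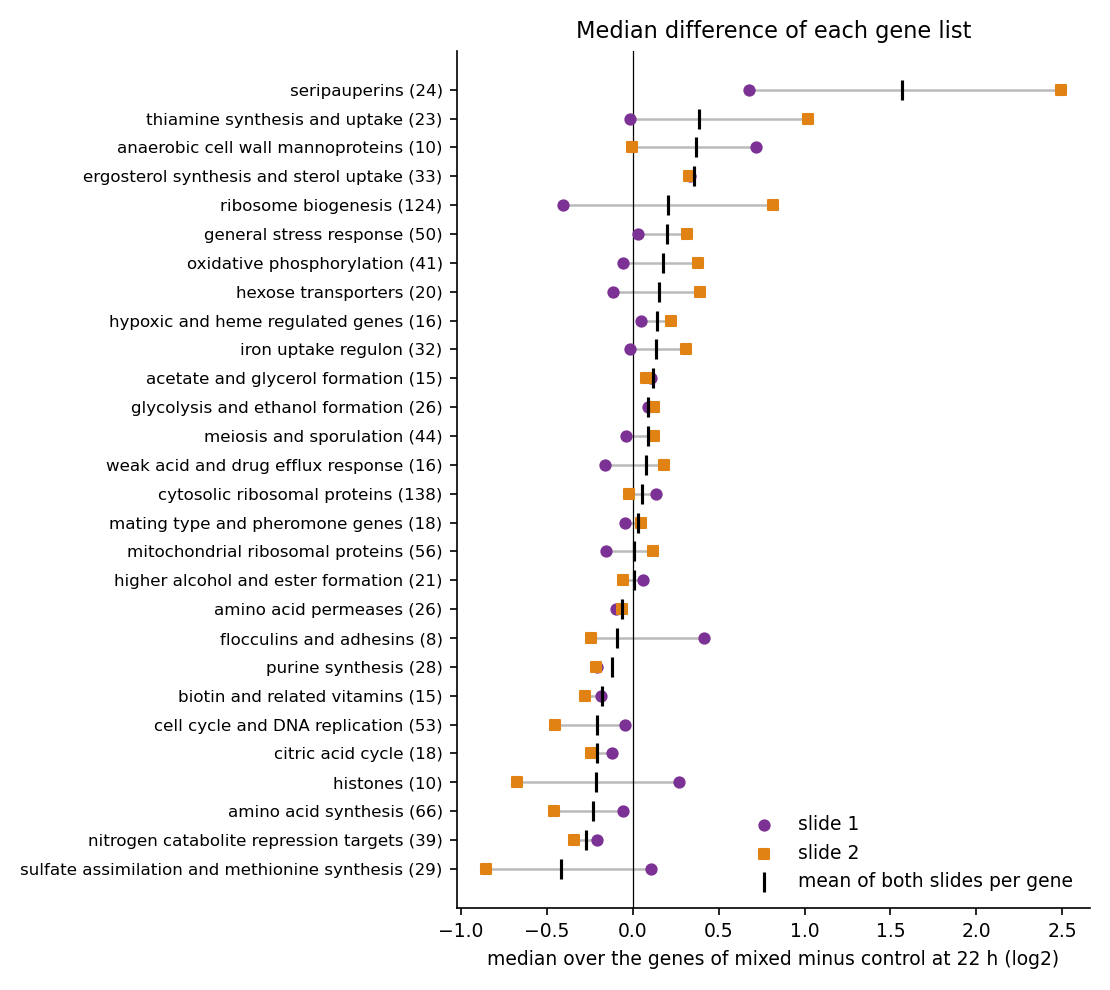
Median difference at 22 h (mixed minus control, log2) of 28 gene lists, with the number of genes kept in brackets, circles for slide 1, squares for slide 2 and a tick for the mean of both slides per gene. Seripauperins (0.67 and 2.49) and ergosterol genes (0.33 and 0.33) lie above 0 on both slides and nitrogen catabolite repression targets (-0.21 and -0.34) below it, whereas ribosome biogenesis, histones and sulfur genes lie on both sides of 0, and with spike-in scaling, which moves all genes to a median of 0.50, no list median at or below -0.06 on this axis stayed below 0.

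Genes outside these lists were found by the rule on slide agreement or by unadjusted p. INO1, which makes inositol phosphate for membrane lipids, had levels of -0.90 and 0.47 in mixed, against -2.12 and -1.05 in control (1.37 ± 0.41), and the slides agreed, at 1.23 and 1.52. YJR149W had levels of -3.56 and -3.20 in mixed, against -2.65 and -2.24 in control (-0.94 ± 0.18, adjusted p = 0.498 in limma). Its slide differences of -0.92 and -0.96 were nearly equal. PAN1, a scaffold of endocytic actin patches, had levels of -2.69 and -1.80 in mixed, against -1.75 and -0.55 in control (-1.10 ± 0.43). TUP1, a general corepressor, had levels of -1.63 and -1.08 in mixed, against -0.94 and -0.08 in control (-0.84 ± 0.33). In both genes replicate 2 was higher than replicate 1 in each kind, and the groups were separated by a narrow margin. HST2, a sirtuin deacetylase, differed by -1.06 ± 0.51, and STP22, a sorting protein of the endosome, by -0.85 ± 0.39.

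Some probes of small p were dim. OSW1, a gene of spore wall formation, was not well above background on either control array (adjusted p = 0.558 in limma). It was 1.47-fold higher in mixed when each control array was set to its lowest level called well above background. This fold leaves out the spread between arrays and is no firm lower limit. YHL005C was not well above background on any of the 4 arrays, so no fold is given. YJL127W-A had levels of -7.48 and -7.13 in mixed, against -8.57 and -8.21 in control. YBR300C had levels of -6.22 and -6.23 in mixed, against -5.58 and -5.29 in control. Neither of these 2 probe names matched the annotation.

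The remaining lists were spread around 0. Their counts stand beside all-gene shares of 13.2% separated with mixed higher and 21.0% with mixed lower. In the iron regulon, 12 of 32 genes were separated with mixed higher and 3 with mixed lower, and the median of 0.13 came from slide 2 (0.31) and not from slide 1 (-0.01). FRE4, a ferric reductase, differed by 1.07, HMX1, a heme oxygenase, by 0.99, and FIT3, a mannoprotein that holds iron carriers at the wall, by 1.10 with 0.06 on slide 1, or by 0.47 without mixed 2. FIT1, of the same wall protein group, differed by -0.43, or 0.10 with spike-in scaling. FLO11, the adhesin of biofilm and flor growth, had levels of -3.06 and -3.22 in mixed, against -3.56 and -1.74 in control, with opposite signs on the slides. Control 2 was the highest array for FLO11, and the difference was 0.42 without it. Among 15 genes of acetate and glycerol formation 5 were separated with mixed higher and 3 with mixed lower (median 0.12). Among 21 genes of higher alcohol and ester formation 3 were higher and 6 lower by that measure (median 0.01, and -0.06 with normexp). Mitochondrial ribosomal protein genes had 9 higher and 8 lower of 56 (median 0.01), and meiosis and sporulation genes 11 higher and 7 lower of 44 (median 0.09, and -0.02 with normexp), with 11 of them under background on at least 1 array. Weak acid and drug efflux genes had 3 higher and 1 lower of 16 (median 0.08), and mating genes 1 higher and 2 lower of 18 (median 0.03, and -0.05 with quantile normalization).

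The difference at 22 h was also set against the mean difference of the 3 later times in the same limma model. No gene passed an adjusted p of 0.05 in that contrast (0 of 6184, 0.0%), and 675 (10.9%) had an unadjusted p under 0.05. CTT1, SOL4 and DAL80 shared the smallest adjusted p of the genes described here, 0.155. CTT1 was higher in mixed by 1.26 at 22 h and stood at -0.18, -0.06 and -0.45 at 92 h, 144 h and 187 h, so the 22 h value exceeded the later mean by 1.49 ± 0.26. SOL4 did so by 1.40 ± 0.23, and CYB2 by 2.15 ± 0.46 (adjusted p = 0.265 in limma). DAL80 had a difference of -1.31 at 22 h, and of -0.23, 0.68 and 0.57 later, so that its 22 h value minus the later mean was -1.65 ± 0.29. CTT1, SOL4, CYB2 and DAL80 were singled out in part by the 22 h values that this contrast uses again. A larger difference at 22 h than later is therefore favoured by their choice. For UPC2 that contrast was -1.17 ± 0.27, with both slides under 0 at 22 h and all 6 later slide differences above 0. PAU5 was not set apart, with 2.06 at 22 h and 1.99, 1.22 and 1.46 later. CHA1 also stayed lower, at -1.53 and then -1.20, -1.17 and -0.95, and ALD6 higher, at 0.91 and then 0.74, 0.78 and 1.57. How many of the genes described kept their difference was not counted.

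**Figure D5:**
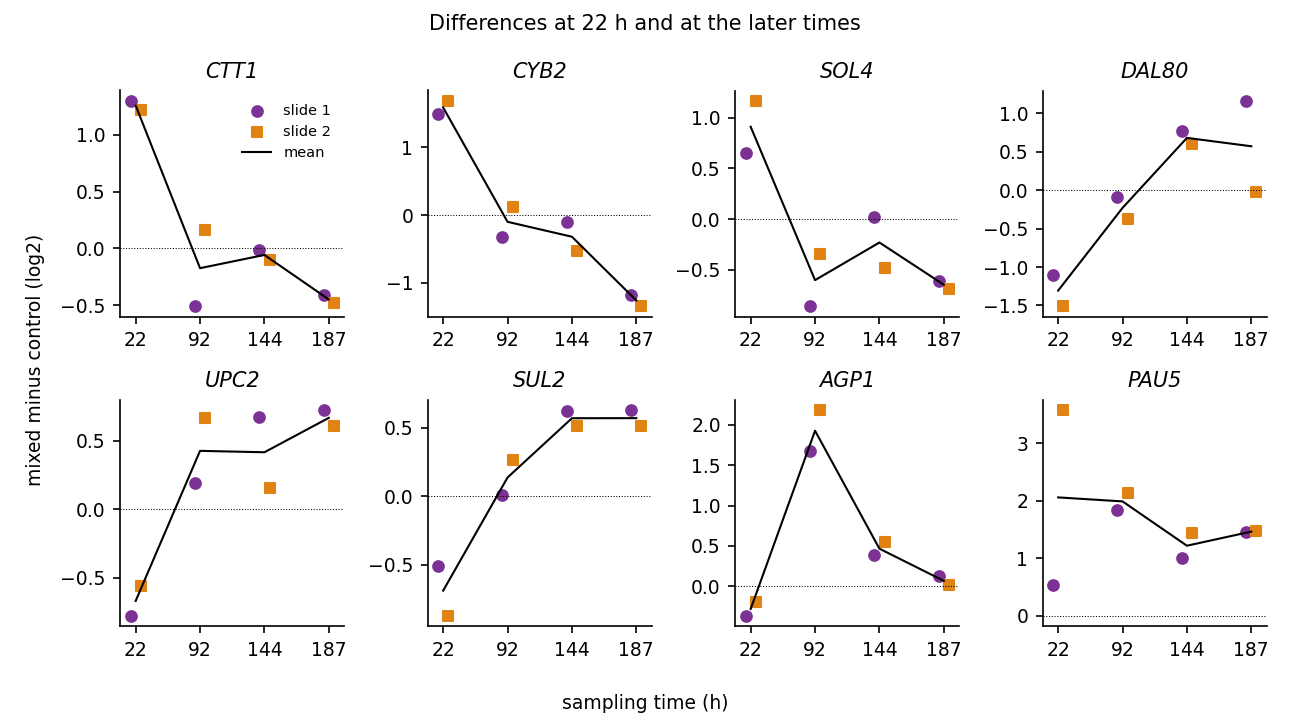
Mixed minus control (log2) of 8 genes at 22 h, 92 h, 144 h and 187 h, with circles for slide 1, squares for slide 2 and a line through the means. CTT1, CYB2 and SOL4 have their highest mean at 22 h, DAL80, UPC2, SUL2 and AGP1 their lowest, and the slides of PAU5 lie farthest apart at 22 h (0.54 and 3.57). The genes were chosen with these values in view, so the time of their extremes is no separate result.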

How the data were processed

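RNA of 16 one-colour arrays was measured, of which 4 enter the comparison. The deposited scanner files hold, per the file headers, processed intensity from Feature Extraction 10.7.3.1 after background correction, for 6256 gene probes in 2 spots each. Outlier spots (7 on the arrays of 22 h) were left out, spots were averaged, and log2 intensity was scaled to the 75th percentile of each array. The deposited value table holds, judged from its values, log2 signals of the authors. They matched the log2 intensity plus 1 constant per array within 0.05 for at least 99.58% of probes, so the table was used only as an alternative. Its filters and constants are not given in the sources used here.

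Probes well above background on at least 2 arrays were kept (6184). A limma model with 1 mean for each of 8 groups (8 residual and 3.26 prior degrees of freedom) was fitted over all arrays, two-sided, with Benjamini-Hochberg adjustment over all genes and a threshold of 0.05. In a test on simulated data of this comparison with 6184 genes, the fit found 4 of 50 genes shifted by 0.5 log2 and 35 of 50 shifted by 1. It found all 50 shifted by 2 or by 3 and made 11 false calls. The simulated noise was normal, independent between arrays and of 1 spread per gene over all groups. It did not hold the slide disagreement of the real 22 h arrays, where THI11 did not pass at a difference of 2.94. Recovery in the real data can therefore be lower.

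The members and the 28 gene lists were chosen with earlier results of these data known, and lists got no test. Named genes were the 10 per direction of largest smaller slide difference (annotated, well above background on all 4 arrays and of 1 sign on both slides), the 5 per direction of smallest p, up to 4 per direction of each list, 37 genes of interest, and the member of each list on which the slides differed most. Of the genes so chosen, 86 are described. An annotation table of assembly R64 matched 5756 of the probe identifiers, and names of the other 500 are those of the array. Alternatives were other scalings, background correction, filters, variance models, a replicate block and left-out arrays. The software was limma 3.58.1 in R 4.3.3, with Python 3.11.15 (numpy 2.4.6, pandas 2.3.3, matplotlib 3.10.9) for tables and plots. The number of arrays limits the precision.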

Additional observations from a re-analysis of the deposited data

Results flagged for a closer look

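Some results had both slides in 1 direction at 22 h and all 6 slide differences of the later times in the other. The sulfate permease gene SUL2 had a difference of -0.69 at 22 h, and 0.14, 0.57 and 0.57 at 92 h, 144 h and 187 h. The sterol regulator gene UPC2 had -0.67 at 22 h, and 0.42, 0.41 and 0.67 later. The amino acid permease gene AGP1 had -0.28 at 22 h, and 1.93, 0.47 and 0.07 later. The difference between 22 h and the later times had an adjusted p of 0.295 for SUL2, 0.282 for UPC2 and 0.282 for AGP1 in limma, so none passed. These genes were picked for their turn of sign, and the p-values do not allow for that choice. The median of the amino acid permease list was -0.061 at 22 h, and 0.02, 0.17 and 0.12 later, and that difference was not tested. With spike-in scaling the 22 h values of AGP1 (0.25) and of the permease list (0.47) were above 0.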

How the results depend on the processing

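The count of 0 genes past an adjusted p of 0.05 at 22 h, and of 0 against the later times, held with median and quantile scaling, normexp, the deposited log2 table, other filters, an intensity trend and 16 added to the signals. It also held at 22 h with only the 4 arrays of that time, where 257 genes had an unadjusted p under 0.05, against 391. Spike-in scaling gave 89 genes at 22 h (88 higher and 1 lower) and 19 against the later times. That fit had infinite prior degrees of freedom, against 3.26 in the main fit, so all genes were given the same variance. Its differences at 22 h were also all moved up by the same amount, so the 89 genes are not comparable with the main count. A fit with 1 array left out assumes that the lone array of its group varies like the other groups. Leaving out 1 array gave 1 to 50 genes at 22 h and 0 to 44 against the later times, most without control 1 (50 and 44). It gave 30 genes without mixed 1, 1 without mixed 2 and 3 without control 2.

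The replicate number is the slide. With the replicate block 1 gene (CYB2) passed at 22 h and 2 against the later times. Deviations from the group means correlated at -0.47 between same-numbered arrays of 22 h and at 0.24, 0.25 and 0.11 at the later times, so the labels' numbers were not taken as pairs. A crossed pairing, added after seeing the data, gave 0 and 0 genes.

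Spike-in scaling turned the list medians of nitrogen catabolite repression (0.26), amino acid permeases (0.47), amino acid synthesis (0.30), purine synthesis (0.41), the citric acid cycle (0.32), biotin and related vitamins (0.35) and the cell cycle (0.32), and of 3 lists whose slides differed in sign, sulfate assimilation (0.11), histones (0.31) and flocculins (0.44). It turned the differences of ADE4 (0.027), AGP1 (0.25), BAP2 (0.075), BIO5 (0.0082), ECM22 (0.15), FIT1 (0.10), FLO11 (0.037), POL30 (0.024) and SNZ1 (0.0019). Quantile normalization and normexp turned the lists of glycolysis (-0.027 and -0.057), cytosolic ribosomal proteins (-0.033 and -0.029), mating genes (-0.049 and -0.033) and higher alcohols (-0.0048 and -0.062), and normexp that of meiosis (-0.015). Leaving out 1 array kept the sign of 81 of the 86 genes described, but moved 51 by over 1.5 times. The other 5 ranged from -0.36 to 0.76 (DAN1), -0.26 to 0.83 (TIR1), -0.40 to 1.21 (DBP2), -1.05 to 2.52 (HXT4) and -1.40 to 0.42 (FLO11). A separated gene keeps its sign whichever array is left out, and many genes were chosen for agreement of the slides. The count of 81 was thus largely set by the choice of genes and is no evidence of stability. The signs that spike-in scaling turned follow from its 1 shift shared by all genes. The cause of the other shifts was not tested. With 2 arrays a group, a difference of 0.5 log2 was mostly not detected in the simulated data. In the real data larger differences, such as 2.94 for THI11, did not pass either.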
